A study of Rattus norvegicus with 23 samples.

Results

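Most Slc4a genes encode membrane proteins that carry bicarbonate across the plasma membrane, and the mRNA levels of the family were followed here in 2 rat kidney cell lines kept at normal or acidic pH. The list held 9 genes (Slc4a1, Slc4a2, Slc4a3, Slc4a4, Slc4a5, Slc4a7, Slc4a8, Slc4a10 and Slc4a11), which were chosen by their symbols. All 9 were found among the 30452 genes of the count table. The table holds 10 Slc4a genes in all, and Slc4a9, which was not on the list, is described separately.

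RNA-seq data came from NRK-52E cells, a line from rat kidney labelled as epithelial (NRKE), and from NRK-49F cells, a line from rat kidney labelled as fibroblasts (NRKF), each cultured on its own. Cells of both lines were kept for 24 h in medium without serum and were then incubated for 48 h at pH 7.4 (control) or at pH 6.0, which was set with HCl. There were n = 6 samples of NRKE cells at each pH, n = 6 of NRKF cells at pH 7.4 and n = 5 of NRKF cells at pH 6.0. All groups shared a DMEM medium buffered with bicarbonate and CO2, for which the labels and the study's methods give different bicarbonate concentrations. The study's methods also list HEPES in the medium without serum. Effects of any change in bicarbonate or chloride through the HCl cannot be told apart here from those of pH. The labels divide the NRKE samples into sample groups 1 and 3 and the NRKF samples into sample groups 4 and 6, each with both pH values, without naming what the sample groups stand for. Each line is an established cell line, and the study calls its samples biological, but nothing in the labels says that the samples of a group were separate cultures. The p-values therefore measure the spread between these samples, which may be partly technical.

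Total counts ran from 17108547 to 32492245 in NRKE cells at pH 7.4, from 16657666 to 33690997 in NRKE cells at pH 6.0, from 16412564 to 34250535 in NRKF cells at pH 7.4 and from 16800361 to 31206192 in NRKF cells at pH 6.0. Levels are given in FPM, counts per 1000000 of the library total after TMM scaling, and 3 counts stood for 0.0839 to 0.203 FPM, depending on the sample. This floor covers counting error only. Since no transcript lengths were at hand, levels were compared between conditions for each gene and never between genes. In bulk RNA, fewer cells with a transcript and less of it per cell cannot be told apart.

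The cell type labels were compared with marker genes. Of 12 epithelial markers, 10 were found in the table, and 5 of these (Epcam, Krt18, Cldn4, Cldn7 and Esrp1) had at most 3 counts in every NRKE sample. The defining epithelial gene Cdh1 had a mean level of 0.16 FPM in NRKE cells and 0.0286 FPM in NRKF cells at pH 7.4. Krt8, the most abundant gene of the list, had a mean of 499 FPM in NRKE cells and 839 FPM in NRKF cells at pH 7.4, whereas Tjp3, a tight junction gene, had 15 FPM in NRKE cells and 1.76 FPM in NRKF cells. Krt7, another keratin of the list, had 21.8 FPM in NRKE cells and 1.42 FPM in NRKF cells at pH 7.4. Since several defining epithelial markers were nevertheless close to 0 in the cells labelled epithelial, these samples are called by the name of the line.

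All 12 fibroblast markers were in the table, and their summed level was 5011 to 8215 FPM in NRKE cells and 10677 to 13572 FPM in NRKF cells at pH 7.4. The markers Pdgfra and Col1a2 had mean levels of 306 and 4474 FPM in NRKF cells at pH 7.4, and Col1a1 was the most abundant there (5874 FPM). Col3a1, the most abundant in NRKE cells, had a higher mean there (6146 FPM at pH 7.4) than in NRKF cells (1211 FPM). Thy1 had at most 3 counts in every sample of either line at that pH, and Dcn in every NRKE sample.

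Of 9 proximal tubule markers, Hnf4a had at most 3 counts in every sample of both lines, whereas Aqp1, the most abundant, had a mean of 74.1 FPM in NRKE cells and 480 FPM in NRKF cells at pH 7.4. The 9 markers of later segments summed at pH 7.4 to 10.9 to 15.1 FPM in NRKE cells, with Aqp3 the most abundant (9.42 FPM), and to 4.8 to 6.46 FPM in NRKF cells, with Scnn1a the most abundant (3.68 FPM), while Umod and Aqp2 had at most 3 counts in every sample. Of 8 intercalated cell markers, Foxi1 had at most 3 counts in every sample, and Atp6v1b1 was the most abundant (9.11 FPM in NRKE cells and 3.65 FPM in NRKF cells at pH 7.4). Of 6 endothelial markers, Cdh5 and Kdr had at most 3 counts in every sample, while Tek had a mean of 14.3 FPM in NRKE cells and Vwf one of 3.46 FPM in NRKF cells at pH 7.4.

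The summed markers also differed between the pH values, though a sum mostly follows the most abundant genes of its list. The median sum of the fibroblast markers in NRKE cells went from 6227 FPM at pH 7.4 to 2468 FPM at pH 6.0, and in NRKF cells from 12651 to 7826 FPM. That of the epithelial markers went from 505 to 236 FPM in NRKE cells and from 782 to 594 FPM in NRKF cells. In NRKE cells the fibroblast sum was nearly all Col3a1 (mean 6146 and 2401 FPM). The epithelial sums were nearly all Krt8 (499 and 222 FPM in NRKE cells, 839 and 566 FPM in NRKF cells). In NRKE cells Krt7 went from 21.8 to 4.04 FPM and Tjp3 from 15 to 19 FPM. The proximal tubule markers went from a median of 546 to 1324 FPM in NRKF cells. In NRKE cells their sums were 114 to 122 FPM at pH 7.4, and at pH 6.0 they split by sample group. Sample group 1 had 120, 135 and 141 FPM and sample group 3 had 36.3, 37.4 and 43.1 FPM. Aqp1, the most abundant of this list, ran from 24.2 to 118 FPM in NRKE cells at pH 6.0. For the later segments the median went from 12 to 4.84 FPM in NRKE cells and from 5.12 to 6.89 FPM in NRKF cells, for the intercalated list from 11 to 4.53 FPM in NRKE and from 3.86 to 4.13 FPM in NRKF, and for the endothelial list from 16.5 to 4.16 FPM in NRKE and from 4.35 to 6.47 FPM in NRKF. Of 11 erythroid markers 7 were in the table, with Ahsp the most abundant. Their median sum was 22.3 FPM in NRKE cells at pH 7.4 against 15.2 FPM at pH 6.0, and 7.75 against 5.36 FPM in NRKF cells. Ahsp alone ran from 3.77 to 27.8 FPM in NRKE cells at pH 6.0.

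The NRKE sample groups differed in these sums as well. At pH 6.0 sample group 3 was above sample group 1 in the fibroblast sums (2963 to 3188 against 1879 to 1973 FPM). It was below in those of the later segments, intercalated, endothelial, leukocyte (5.82 to 7.49 against 9.87 to 9.92 FPM) and erythroid lists (6.6 to 7.3 against 23.1 to 30.2 FPM), and the epithelial sums overlapped. At pH 7.4 the groups were apart in the fibroblast (6885 to 8215 FPM in sample group 3 against 5011 to 5568 FPM), intercalated (5.18 to 9.39 against 12.7 to 13.7 FPM) and leukocyte sums (3 to 3.54 against 4.71 to 5.4 FPM). The fibroblast sums of NRKE cells were nearly all Col3a1, and Col1a1 of the same list split the other way. Col1a1 was at 15.2 to 19.8 FPM in sample group 3 against 29.9 to 34.5 FPM in sample group 1 at pH 6.0. At pH 7.4 it was at 17.8 to 28.9 against 76.5 to 120 FPM. The part of these shifts in the acid responses was not tested.

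Itgam of leukocytes had at most 3 counts in every sample. The median sum of the leukocyte markers in NRKE cells went from 4.13 to 8.68 FPM on acid. The summed level of 6 leukocyte markers in NRKF cells ran from 22 to 33.7 FPM at pH 7.4 and from 218 to 252 FPM at pH 6.0, nearly all of it Cd68, a lysosomal gene of macrophages, and its part in the NRKF results was not tested.

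In 1 NRKE library at pH 7.4, A021, several genes that are high in NRKF cells and low in NRKE cells stood above the other NRKE libraries. Col1a2 was at 52.8 FPM in A021, 1.18% of the NRKF mean, at 15.4 FPM in A022 and 10.9 FPM in A033, and at 0.654 FPM or less in the other NRKE samples at pH 7.4. Pdgfra was at 4.73 FPM in A021 (1.54% of the NRKF mean), and the next highest NRKE sample had 2.21 FPM. Results on Slc4a7, which is higher in NRKF cells, are therefore given with and without A021, and the counts of Slc4a4 sample by sample.

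Slc4a1, Slc4a2 and Slc4a3 are anion exchangers, which move chloride in exchange for bicarbonate and, in their usual direction, carry bicarbonate out of the cell and so load it with acid. The sodium-coupled members (Slc4a4, Slc4a5, Slc4a7, Slc4a8 and Slc4a10) usually carry bicarbonate into the cell and so raise its pH. In the kidney, Slc4a4 at the basolateral side of the proximal tubule and Slc4a1 in acid-secreting intercalated cells return bicarbonate to the blood.

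Of the 9 members, 6 passed the filter on low counts and were tested (Slc4a2, Slc4a3, Slc4a4, Slc4a7, Slc4a10 and Slc4a11). Slc4a4 passed only through the NRKF samples. The other 3 members, Slc4a1, Slc4a5 and Slc4a8, had at most 6 counts in any sample. Folds are those of the fitted model unless a ratio of means is named. A gene was called changed when its adjusted p from edgeR's quasi-likelihood test, adjusted by Benjamini-Hochberg over all 14777 tested genes was below 0.05.

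In NRKE cells, acid (pH 6.0) raised 2 of the 6 tested members (Slc4a7 and Slc4a11), where 24.7% of all tested genes rose, and lowered 2 (Slc4a2 and Slc4a3), where 36.6% of all tested genes fell. In NRKF cells 1 member rose (Slc4a7), where 14.5% of all tested genes rose, and 2 fell (Slc4a2 and Slc4a11), where 14.4% of all tested genes fell. The acid responses of the lines differed for 2 members (Slc4a3 and Slc4a11), where 41.4% of all tested genes differed. The NRKF count of 3 called members was 1 in the fit within sample groups 1 and 4 and 5 without A043. With so many genes called, these counts do not set the family apart from other genes. The median log2 fold change of all tested genes on acid was -0.12 in NRKE cells and 0.00 in NRKF cells.

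**Figure D1:**
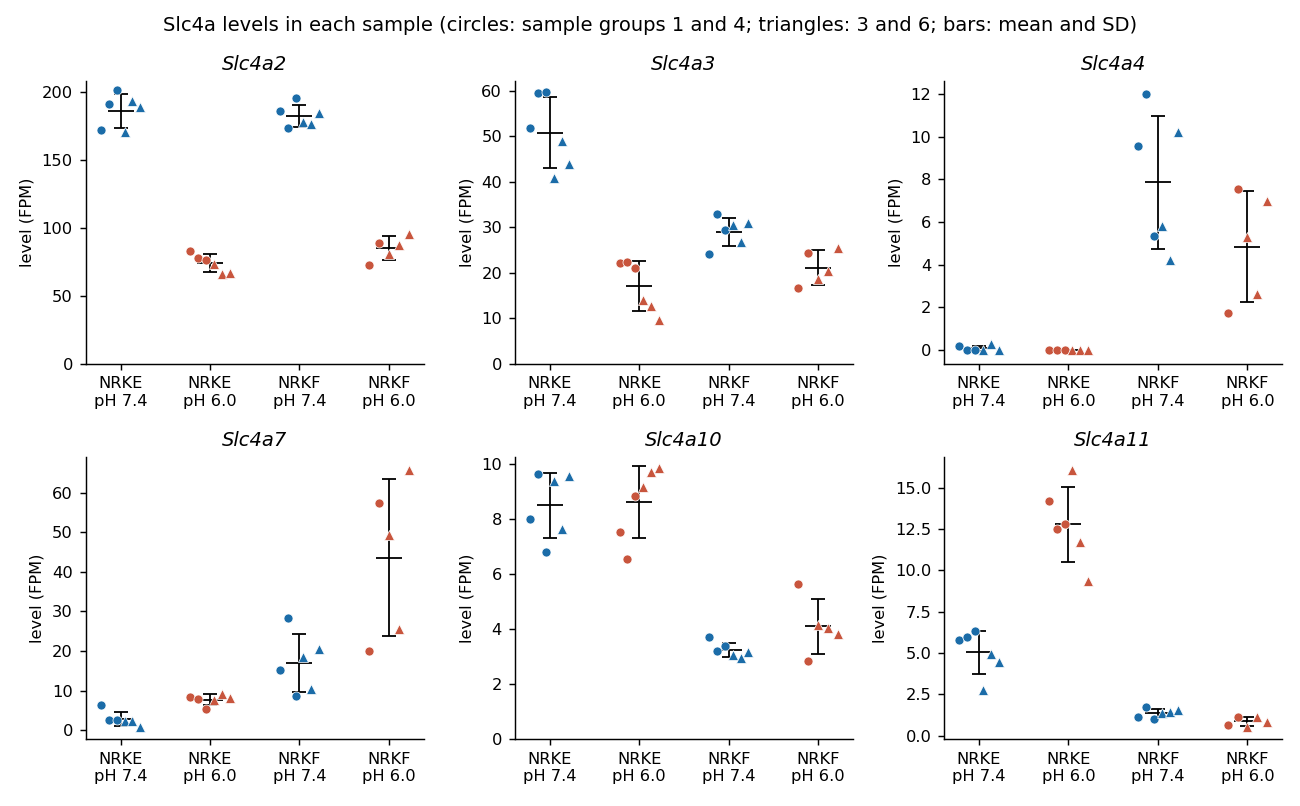
Level in FPM (vertical axes, linear) of the 6 tested Slc4a genes in each of the 23 samples, by cell line and pH. Points are samples, circles for sample groups 1 and 4 and triangles for 3 and 6, and black bars are the mean and SD. Slc4a2 fell from a mean of 186 to 73.8 FPM in NRKE cells and from 182 to 85.0 FPM in NRKF cells, and Slc4a7 rose in both lines with a wide spread in NRKF cells.

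Slc4a2 (ENSRNOG00000014347, chromosome 4) encodes AE2, a chloride-bicarbonate exchanger found in most cell types. In NRKE cells its lowest, median and highest levels were 170, 190 and 201 FPM at pH 7.4 and 65.9, 74.8 and 83.0 FPM at pH 6.0. In NRKF cells they were 173, 181 and 195 FPM at pH 7.4, and the 5 samples at pH 6.0 had 72.3, 80.9, 87.4, 89.0 and 95.3 FPM. Every sample at pH 6.0 was below every sample at pH 7.4 in both lines, and the lines overlapped at either pH.

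The log2 fold change of Slc4a2 on acid was -1.33 ± 0.07 (SE) in NRKE cells (adjusted p = 5.1e-13, edgeR quasi-likelihood test, Benjamini-Hochberg adjusted). In NRKF cells it was -1.10 ± 0.08 (adjusted p = 2.1e-10, same edgeR test and adjustment). The level was thus 2.52-fold lower at pH 6.0 in NRKE cells and 2.14-fold lower in NRKF cells. The difference of both responses, -0.23 ± 0.11, was not called (adjusted p = 0.077, same edgeR test and adjustment), but it was called without A024 (-0.27, adjusted p = 0.043) or without A042 (-0.29, adjusted p = 0.025), within sample groups 3 and 6 (-0.39, adjusted p = 0.027) and with the TMM factor as a covariate (-0.25, adjusted p = 0.03). Both falls were called under all 11 other settings and in all 23 fits that left out a sample.

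At pH 7.4 Slc4a2 was at 186 ± 12.5 FPM in NRKE cells and 182 ± 8.15 FPM in NRKF cells (mean ± SD, n = 6 each), a difference within the spread of the samples, with a log2 fold change of NRKE against NRKF of 0.03 ± 0.07 (adjusted p = 0.72, edgeR quasi-likelihood test, Benjamini-Hochberg adjusted; 0.22 and adjusted p = 0.041 with raw library totals). At pH 6.0 it was slightly lower in NRKE cells (73.8 ± 6.68 FPM, n = 6) than in NRKF cells (85.0 ± 8.74 FPM, n = 5), by -0.20 ± 0.08 (adjusted p = 0.019, same edgeR test and adjustment). This small difference rested on the scaling, being 0.00 with raw library totals and -0.17 with RLE scaling (adjusted p = 0.051), and the call was also lost within sample groups 1 and 4 (-0.04, adjusted p = 0.78) and without A037 (adjusted p = 0.054) or A038 (adjusted p = 0.0503). With raw library totals the median of all genes in the comparison of the lines moved by 0.18 at pH 7.4 and by 0.21 at pH 6.0.

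Slc4a3 (ENSRNOG00000020138, chromosome 9) encodes AE3, an anion exchanger best known from heart, brain and retina. In NRKE cells the lowest, median and highest levels were 40.8, 50.4 and 59.6 FPM at pH 7.4 and 9.71, 17.6 and 22.3 FPM at pH 6.0. In NRKF cells they were 24.2, 29.9 and 32.8 FPM at pH 7.4, with 16.7, 18.6, 20.3, 24.4 and 25.5 FPM in the 5 samples at pH 6.0. The pH values did not overlap in NRKE cells, whereas in NRKF cells the higher samples at pH 6.0 (A043 and A056) exceeded the lowest one at pH 7.4 (A039).

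In NRKE cells Slc4a3 was 2.98-fold lower on acid, with a log2 fold change of -1.57 ± 0.17 (adjusted p = 2.8e-08, edgeR quasi-likelihood test, Benjamini-Hochberg adjusted). In NRKF cells the log2 fold change of -0.46 ± 0.18 missed the threshold (adjusted p = 0.052, same edgeR test and adjustment). The NRKF value passed with DESeq2 (-0.47, adjusted p = 0.034) and with the sample group as a block (-0.47, adjusted p = 0.0062), and also with RLE scaling, the likelihood ratio test and the line fitted alone (adjusted p = 0.049, 0.036 and 0.0098). It passed too without A024, A025, A026, A037, A038, A039, A043 or A056 (adjusted p from 0.0237 to 0.0495), and over all fits without a sample it ran from -0.54 to -0.39. The responses of the lines differed by -1.11 ± 0.24 (adjusted p = 0.0007, same edgeR test and adjustment), so that the fall was larger in NRKE cells.

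The conditions ranked for Slc4a3 as NRKE at pH 7.4 (50.7 ± 7.81 FPM), NRKF at pH 7.4 (29.0 ± 3.11 FPM), NRKF at pH 6.0 (21.1 ± 3.77 FPM) and NRKE at pH 6.0 (17.0 ± 5.50 FPM; mean ± SD). At pH 7.4 the level in NRKE cells exceeded that in NRKF cells by 0.81 ± 0.17 on the log2 scale (adjusted p = 0.00015, edgeR quasi-likelihood test, Benjamini-Hochberg adjusted). At pH 6.0 the lines overlapped, and the log2 difference of -0.31 ± 0.18 was not called (adjusted p = 0.12, same edgeR test and adjustment).

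The NRKE sample groups stood apart in this gene at both pH values. At pH 7.4 the mean level of Slc4a3 was 56.9 FPM in sample group 1 and 44.5 FPM in sample group 3, and at pH 6.0 it was 21.8 and 12.2 FPM, with no overlap at either pH. The comparison of the lines at pH 6.0 accordingly changed sign, from 0.08 within sample groups 1 and 4 (adjusted p = 0.69, edgeR quasi-likelihood test, Benjamini-Hochberg adjusted) to -0.82 within sample groups 3 and 6 (adjusted p = 0.00044). The fall on acid was seen in each, -1.38 in sample group 1 and -1.87 in sample group 3. The difference of the acid responses was called under all 10 other settings, from -1.42 to -0.89. The comparison of the lines at pH 7.4 was called under all 8, from 0.60 to 0.99. Both sets of settings include each pair of sample groups alone. What the sample groups contributed to the comparison of the lines at pH 6.0 was not tested.

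Other members also split by sample group at 1 pH. In NRKE cells at pH 7.4, sample group 1 was above sample group 3 in Slc4a7 (2.60 to 6.35 against 0.962 to 2.40 FPM) and Slc4a11 (5.79 to 6.33 against 2.77 to 4.96 FPM). At pH 6.0 it was above in Slc4a2 (76 to 83 against 65.9 to 73.6 FPM) and below in Slc4a10 (6.55 to 8.85 against 9.16 to 9.86 FPM). In NRKF cells at pH 7.4, Slc4a10 was at 3.20 to 3.71 FPM in sample group 4 and 2.96 to 3.18 FPM in sample group 6.

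Slc4a1 (ENSRNOG00000020951, chromosome 10) encodes AE1, the band 3 protein of red blood cells, which is also found in intercalated cells. It was close to 0 in all conditions, with 1 count over the 6 NRKE samples at pH 7.4, 0 over the 6 at pH 6.0, 2 over the 6 NRKF samples at pH 7.4 and 7 over the 5 at pH 6.0. No fold change is given for it, since all group means lay under the level of 3 counts. Of the 8 intercalated cell markers, 5 had at most 3 counts in every NRKE sample, Foxi1 among them. Others were present in NRKE cells at pH 7.4, such as Atp6v1b1 (9.11 FPM) and Atp6v0d2 (0.836 FPM).

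Slc4a4 (ENSRNOG00000003134, chromosome 14) encodes NBCe1, the electrogenic sodium-bicarbonate cotransporter. Nearly all of its counts were in NRKF cells. In NRKF cells the lowest, median and highest levels were 4.23, 7.69 and 12.0 FPM at pH 7.4, and the 5 samples at pH 6.0 had 1.73, 2.63, 5.30, 7 and 7.56 FPM. In NRKE cells 6 counts were found in A021 (0.168 FPM) and 5 in A034 (0.273 FPM) at pH 7.4, and 0 in all other samples, including all 6 at pH 6.0. The lines did not overlap at either pH, whereas the pH values overlapped widely in NRKF cells.

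At pH 7.4 the mean level of Slc4a4 was 7.85 FPM in NRKF cells and 0.0734 FPM in NRKE cells, where it lay under the mean level of 3 counts (0.138 FPM). At pH 6.0, with all NRKE samples at 0, the mean level in NRKF cells was at least 33-fold higher than 3 counts per NRKE library. No p is given for the lines, since Slc4a4 entered the test only through its NRKF counts. The 6 counts of A021 stood at 2.14% of the NRKF mean, and the 5 counts of A034 at 3.47%. For Pdgfra, Col1a1, Col1a2, Lum and Twist1, fibroblast markers far lower in NRKE than in NRKF cells, A021 had 1.18% to 2.53% of the NRKF means. A034 had 0% to 0.303%. The source of these few counts was not tested. In NRKE cells both pH values were under the floor on average, and neither a fold change nor a p on acid is given.

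On acid, Slc4a4 in NRKF cells went from 7.85 ± 3.13 FPM (mean ± SD, n = 6) to 4.84 ± 2.59 FPM (n = 5), a log2 fold change of -0.70 ± 0.41 that was not called (adjusted p = 0.22, edgeR quasi-likelihood test, Benjamini-Hochberg adjusted). It was called neither under any of the 10 other settings that could be fitted nor in any of the 23 fits without a sample.

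Slc4a7 (ENSRNOG00000005957, chromosome 15) encodes NBCn1, an electroneutral sodium-bicarbonate cotransporter that takes up bicarbonate, in the kidney mainly in the thick ascending limb. In NRKE cells the lowest, median and highest levels were 0.962, 2.50 and 6.35 FPM at pH 7.4 and 5.32, 7.97 and 9.21 FPM at pH 6.0. In NRKF cells they were 8.65, 16.9 and 28.4 FPM at pH 7.4, and the 5 samples at pH 6.0 had 20, 25.7, 49.2, 57.3 and 65.8 FPM. In NRKE cells the pH values overlapped only through A021, since the other samples at pH 7.4 had 2.74 FPM or less. In NRKF cells the lowest samples at pH 6.0 (A042 and A055) lay among the samples at pH 7.4.

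The log2 fold change of Slc4a7 on acid was 1.36 ± 0.35 in NRKE cells (2.57-fold, adjusted p = 0.0019, edgeR quasi-likelihood test, Benjamini-Hochberg adjusted) and 1.36 ± 0.33 in NRKF cells (2.56-fold, adjusted p = 0.0034). The difference between the lines was 0.00 (adjusted p = 1, same edgeR test and adjustment). Without A021, the NRKE response was 1.79 (adjusted p = 0.0001) and the difference 0.43 (adjusted p = 0.47). A021 had 37.4% of the NRKF mean of Slc4a7, and the other NRKE samples at pH 7.4 had at most 16.2%. Pdgfra, Col1a1, Col1a2, Lum and Twist1, fibroblast markers far lower in NRKE than in NRKF cells, stood in A021 at 1.18% to 2.53% of their NRKF means. The sum of all 12 fibroblast markers was 5011 FPM in A021, the lowest of the NRKE samples at pH 7.4. The source of the high Slc4a7 level in A021 was not tested.

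Within sample groups, the rise of Slc4a7 was 0.84 in sample group 1 (adjusted p = 0.2, edgeR quasi-likelihood test, Benjamini-Hochberg adjusted) and 2.11 in sample group 3, and it was 1.14 in sample group 4 (adjusted p = 0.14) and 1.51 in sample group 6. Sample group 1 holds A021, and sample group 4 holds 2 samples at pH 6.0. The test of whether the acid response differed between the sample groups of a line called 0 of the 6 members in either line, where it called 10.6% of all tested genes in NRKE cells and 0% in NRKF cells. At an unadjusted p below 0.05 it found 1 member (Slc4a3) in NRKE cells and 0 in NRKF cells.

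The spread of Slc4a7 in NRKF cells went along with the scaling of the libraries. At pH 6.0 the samples with 20, 25.7, 49.2, 57.3 and 65.8 FPM had TMM factors of 0.804, 0.888, 0.934, 0.977 and 0.992. At pH 7.4 the samples with the lower factors, A052 (0.877) and A041 (0.902), had 10.4 and 8.65 FPM, whereas A040 (0.984) had 28.4 FPM and A051 (0.986) 18.4 FPM. Slc4a4 was also lowest in A042 and A055 at pH 6.0 and in A052 and A041 at pH 7.4, so that both genes were low in the same libraries.

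When the log2 of the TMM factor was added to the model as a covariate, which was chosen after seeing the data, the rise of Slc4a7 was 1.58 in NRKF cells (adjusted p = 2.6e-06, edgeR quasi-likelihood test, Benjamini-Hochberg adjusted) and 1.53 in NRKE cells (adjusted p = 4e-06). The change of Slc4a4 in NRKF cells was -0.54 in this model and was not called (adjusted p = 0.19). What made the libraries differ in this factor was not tested.

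**Figure D2:**
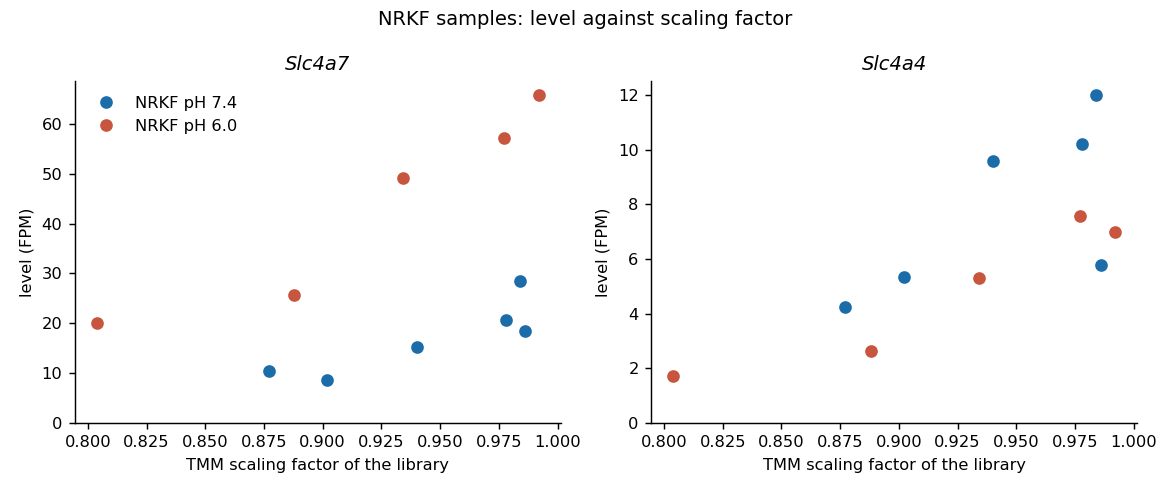
Level of Slc4a7 and Slc4a4 in FPM (vertical axes) against the TMM scaling factor of the library (horizontal axes) in the 11 NRKF samples, blue at pH 7.4 and red at pH 6.0. Points are samples. At each pH the 2 libraries with the lowest factors had the lowest levels of both genes, and at similar factors Slc4a7 was higher at pH 6.0.

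Slc4a7 was also higher in NRKF than in NRKE cells at either pH. The log2 fold change of NRKE against NRKF was -2.50 ± 0.35 at pH 7.4 (adjusted p = 1e-06, edgeR quasi-likelihood test, Benjamini-Hochberg adjusted), a 5.65-fold lower level, and -2.49 ± 0.35 at pH 6.0 (adjusted p = 6.6e-07). Without A021 the value at pH 7.4 was -2.92. No NRKE sample reached the lowest NRKF sample of the same pH, and the order of the conditions was NRKF at pH 6.0 (43.6 FPM), NRKF at pH 7.4 (17.0 FPM), NRKE at pH 6.0 (7.76 FPM) and NRKE at pH 7.4 (2.90 FPM).

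Slc4a10 (ENSRNOG00000005307, chromosome 3) encodes a sodium-driven bicarbonate transporter, known as NCBE or NBCn2, that is best known from brain and choroid plexus. In NRKE cells the lowest, median and highest levels were 6.79, 8.69 and 9.63 FPM at pH 7.4 and 6.55, 9 and 9.86 FPM at pH 6.0. In NRKF cells they were 2.96, 3.19 and 3.71 FPM at pH 7.4, and the 5 samples at pH 6.0 had 2.86, 3.83, 4.04, 4.15 and 5.65 FPM. The lines were fully apart at either pH, and the pH values overlapped in each line.

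Slc4a10 was 2.61-fold higher in NRKE than in NRKF cells at pH 7.4, with a log2 fold change of 1.38 ± 0.15 (adjusted p = 9.3e-09, edgeR quasi-likelihood test, Benjamini-Hochberg adjusted), and 2.09-fold higher at pH 6.0, with 1.06 ± 0.15 (adjusted p = 1.1e-06). Its log2 fold change on acid was 0.02 ± 0.14 in NRKE cells (adjusted p = 0.91, same edgeR test and adjustment) and 0.34 ± 0.16 in NRKF cells (adjusted p = 0.1), neither of which was called. Without A043, the NRKF sample with the lowest level at pH 6.0, the NRKF value was 0.44 and was called (adjusted p = 0.034), and without A042, the highest, it was 0.20 (adjusted p = 0.36). The order of the means was NRKE at pH 6.0 (8.61 FPM), NRKE at pH 7.4 (8.50 FPM), NRKF at pH 6.0 (4.11 FPM) and NRKF at pH 7.4 (3.25 FPM). All NRKF samples at pH 6.0 but A043 lay above the highest at pH 7.4 (3.71 FPM).

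Slc4a5 (ENSRNOG00000010378, chromosome 4), which encodes the electrogenic cotransporter NBCe2, had between 0 and 6 counts per sample and sums of 11, 10, 5 and 6 counts in NRKE cells at pH 7.4, NRKE cells at pH 6.0, NRKF cells at pH 7.4 and NRKF cells at pH 6.0. In NRKF cells every count was found in sample group 6. Slc4a8 (ENSRNOG00000028879, chromosome 7), which encodes a sodium-driven chloride-bicarbonate exchanger of neurons, had 0 counts in all 23 samples. In any single sample, a level under that of 3 counts, 0.203 FPM or less by sample, could have been missed at this depth. A limit over all 23 samples together was not calculated.

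Slc4a11 (ENSRNOG00000021234, chromosome 3) belongs to the family by sequence, but its protein is known for proton, water and ammonia-linked transport in the corneal endothelium and not for carrying bicarbonate. In NRKE cells the lowest, median and highest levels were 2.77, 5.38 and 6.33 FPM at pH 7.4 and 9.37, 12.7 and 16.1 FPM at pH 6.0. In NRKF cells they were 1.01, 1.40 and 1.73 FPM at pH 7.4, and the 5 samples at pH 6.0 had 0.556, 0.662, 0.833, 1.12 and 1.16 FPM. All NRKE samples at pH 6.0 lay above all at pH 7.4, while the NRKF samples overlapped, with 13 to 43 counts per sample.

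Slc4a11 rose 2.52-fold on acid in NRKE cells, with a log2 fold change of 1.33 ± 0.19 (adjusted p = 1.4e-06, edgeR quasi-likelihood test, Benjamini-Hochberg adjusted). In NRKF cells it was 1.60-fold lower, with -0.68 ± 0.24 (adjusted p = 0.037, same edgeR test and adjustment). The difference of the responses was 2.02 ± 0.31 (adjusted p = 1.2e-05, same edgeR test and adjustment), and it was called under all 10 other settings and in all 23 fits without a sample, with values from 1.68 to 2.40. The NRKE rise was likewise called in each of these fits, whereas the NRKF fall was lost with the line fitted alone (adjusted p = 0.053), with no filter on low counts (adjusted p = 0.054), with the TMM factor as a covariate (adjusted p = 0.051), within either pair of sample groups (adjusted p = 0.25 and 0.14) and without A040, A042, A051, A052, A053, A054 or A056 (adjusted p from 0.053 to 0.12).

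The lines differed in Slc4a11 before acid as well, by 1.87 ± 0.20 at pH 7.4 (3.65-fold higher in NRKE cells, adjusted p = 1.6e-08, edgeR quasi-likelihood test, Benjamini-Hochberg adjusted). At pH 6.0 the difference was 3.88 ± 0.24, or 14.8-fold (adjusted p = 2.7e-13, same edgeR test and adjustment). The conditions ranked as NRKE at pH 6.0 (12.8 FPM), NRKE at pH 7.4 (5.05 FPM), NRKF at pH 7.4 (1.38 FPM) and NRKF at pH 6.0 (0.865 FPM).

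**Figure D3:**
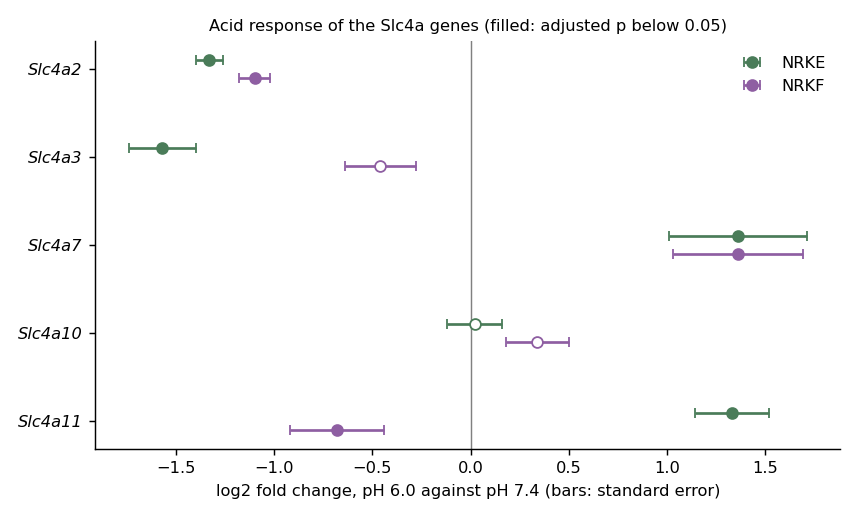
Log2 fold change at pH 6.0 against pH 7.4 (horizontal axis) of the 5 Slc4a genes detected in both lines (Slc4a4, at 0 counts in most NRKE samples, is left out), NRKE in green and NRKF in purple. Points are edgeR estimates, bars their standard error, and filled points passed an adjusted p of 0.05. Slc4a2 lies at -1.33 and -1.10, Slc4a7 at 1.36 in both lines, and Slc4a11 on opposite sides of 0 at 1.33 and -0.68.

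Across the lines, of the 5 tested members with a mean above the level of 3 counts in every condition, 3 were higher in NRKE than in NRKF cells at pH 7.4 (Slc4a3, Slc4a10 and Slc4a11), where 35% of all tested genes were higher, and 1 was lower (Slc4a7), where 33.9% of all tested genes were lower. At pH 6.0, 2 were higher (Slc4a10 and Slc4a11), where 36.6% of all tested genes were higher, and 2 were lower (Slc4a2 and Slc4a7), where 38.9% of all tested genes were lower. Of all genes called at pH 7.4, 50.8% were higher in NRKE cells, against 62% with raw library totals, and at pH 6.0 the shares were 48.4% and 57.3%.

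The family gene outside the list, Slc4a9 (ENSRNOG00000018525, chromosome 18), encodes AE4 of intercalated cells and was looked at after its values were seen. Its levels in NRKE cells were 1.23, 1.83 and 2.90 FPM (lowest, median and highest) at pH 7.4 and 0.105, 0.448 and 1.04 FPM at pH 6.0, and the NRKF samples had 0 to 2 counts except A052, which had 15. The NRKE samples did not overlap between the pH values. Its log2 fold change on acid in NRKE cells was -2.02. No p is given, since Slc4a9 passed the filter mainly through the NRKE samples at pH 7.4. These had 27 to 77 counts, and the NRKE samples at pH 6.0 had 2 to 19. For NRKF cells no fold change is given, since both means were under the level of 3 counts.

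Promoter sequences of RefSeq (build GRCr8) were matched for 6 of the 9 members (Slc4a2, Slc4a3, Slc4a4, Slc4a5, Slc4a8 and Slc4a10). Those of Slc4a2 and Slc4a3, the anion exchangers that fell together in NRKE cells, are shown with the 250 bases before the annotated start, 5′ to 3′. The Slc4a2 sequence is from chr4:11645403-11645652 on the minus strand and the Slc4a3 sequence from chr9:84485405-84485654 on the plus strand. Capitals mark a GC box.
Slc4a2: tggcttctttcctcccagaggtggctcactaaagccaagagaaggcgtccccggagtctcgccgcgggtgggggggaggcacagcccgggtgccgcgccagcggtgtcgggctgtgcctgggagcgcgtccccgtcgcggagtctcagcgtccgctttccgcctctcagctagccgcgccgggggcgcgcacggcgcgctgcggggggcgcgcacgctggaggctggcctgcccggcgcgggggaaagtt
Slc4a3: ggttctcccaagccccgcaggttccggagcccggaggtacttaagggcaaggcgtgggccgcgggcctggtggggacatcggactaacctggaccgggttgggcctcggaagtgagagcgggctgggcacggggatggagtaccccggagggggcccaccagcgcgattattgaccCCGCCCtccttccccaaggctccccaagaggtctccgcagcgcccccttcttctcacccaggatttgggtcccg

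Both were rich in G and C (74.4% and 68.4%, against a median of 51.2% over the 33469 promoters of the table), with 33 and 18 CpG pairs against a median of 5. On both strands of these 250 bases 4 motifs were searched, the GC box GGGCGG, the E-box CACGTG, the cAMP response element TGACGTCA and the CCAAT box CCAAT, which do not overlap in the printed sequences. Slc4a3 held 1 GC box, on the reverse strand as CCGCCC, and Slc4a2 held none of the 4. Among all promoters 30.5% held the GC box, 5.59% the E-box, 1.59% the cAMP response element and 34% the CCAAT box. A match is a description of the letters, and which start sites the cells used was not measured.

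The genes whose pattern was most like that of a member were sought by Pearson's r of log2(FPM + 1) over the 23 samples, for the 5 members with a mean of at least 5 FPM. The samples shared their line and pH, so these coefficients mostly describe the same 4 conditions and carry no p. Slc4a2 was closest to Dgcr8 (r = 0.970), Add1 (0.968) and Tmem260 (0.967), and Slc4a3 to Plekhg3 (0.971), Itfg2 (0.969) and Nckap5 (0.963). Slc4a7 was closest to Zcchc2 (0.964), Uhrf2 (0.961) and Lrrc8b (0.958).

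Slc4a10 was closest to Brf2 (0.969), Golga7 (0.967) and Osgin2 (0.966). Slc4a11 was closest to Blcap (0.981), Gpc3 (0.973) and Vamp2 (0.973). Gpc3, for instance, had mean levels of 6.00 and 21.6 FPM in NRKE cells at pH 7.4 and pH 6.0, and 0.207 and 0.0372 FPM in NRKF cells.

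Other genes of bicarbonate and proton transport were examined as lists. Of 20 regulators and partners of Slc4a proteins in the table, 18 were tested, and 7 rose and 6 fell on acid in NRKE cells, where 24.7% of all tested genes rose and 36.6% fell, and 5 rose and 7 fell in NRKF cells, where 14.5% rose and 14.4% fell. Their median log2 fold change was 0.19 in NRKE cells (all genes, -0.12) and -0.21 in NRKF cells (all genes, 0.00).

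Ahcyl1, which encodes IRBIT, an activator of sodium-bicarbonate cotransporters, had the largest rise of this list in NRKE cells. Its levels there were 119, 144 and 153 FPM (lowest, median and highest) at pH 7.4 and 252, 289 and 310 FPM at pH 6.0, with no overlap. In NRKF cells they were 145, 169 and 179 FPM at pH 7.4 and 202, 218 and 240 FPM at pH 6.0, also without overlap. The log2 fold changes were 1.01 ± 0.08 (adjusted p = 6.1e-11, edgeR quasi-likelihood test, Benjamini-Hochberg adjusted) and 0.43 ± 0.08 (adjusted p = 0.00016), and the responses differed by 0.58 ± 0.11 (adjusted p = 0.00015), though within sample groups 1 and 4 the difference was not called (0.43, adjusted p = 0.074).

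Its relative Ahcyl2 rose by 0.43 ± 0.10 in NRKF cells (adjusted p = 0.003, edgeR quasi-likelihood test, Benjamini-Hochberg adjusted) and had a value of 0.22 ± 0.10 in NRKE cells (adjusted p = 0.057), which passed without A021, A025, A041 or A052 (adjusted p from 0.037 to 0.047), with RLE scaling, DESeq2, the line fitted alone and the TMM factor as a covariate (adjusted p = 0.028, 0.02, 0.011 and 0.0055). The NRKF call was lost within either pair of sample groups (adjusted p = 0.061 and 0.073). Slc4a1ap, named as an adaptor of the Slc4a1 protein, rose by 0.61 ± 0.09 in NRKE cells (adjusted p = 1.8e-06, same edgeR test and adjustment) and by 0.28 ± 0.09 in NRKF cells (adjusted p = 0.022, but 0.057 without A039, 0.075 without A042, and 0.17 and 0.16 within the pairs of sample groups). Epb41, which encodes the membrane skeleton protein 4.1R, had the largest rise in NRKF cells, 1.20 ± 0.21 (adjusted p = 0.00014, same edgeR test and adjustment), and rose by 1.00 ± 0.21 in NRKE cells (adjusted p = 0.0002), with 0.61 in sample group 1 (adjusted p = 0.0504) and 1.41 in sample group 3.

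Epb42, for a membrane protein that binds band 3, had the largest fall of the list in NRKE cells. It went from a mean of 5.87 to 0.862 FPM in NRKE cells, with a log2 fold change of -2.77 ± 0.33 (adjusted p = 1.2e-07, edgeR quasi-likelihood test, Benjamini-Hochberg adjusted). In NRKF cells, where it was also counted among the genes that fell, its counts were low, with 6 to 47 in the samples at pH 7.4 (mean 0.695 FPM) and 1 to 8 in those at pH 6.0 (mean 0.168 FPM), so neither a fold change nor a p is given. Adcy10, the bicarbonate-sensitive adenylyl cyclase, was not tested, since its mean level was 0.185 FPM or less in each condition.

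Of 16 carbonic anhydrases in the table, 7 were tested, and 3 rose and 2 fell in NRKE cells (all tested genes, 24.7% and 36.6%) and 3 rose and 3 fell in NRKF cells (14.5% and 14.4%). Their median log2 fold change was 0.55 in NRKE cells (all genes, -0.12) and -0.35 in NRKF cells (all genes, 0.00). The extracellular enzyme gene Ca9 fell from a mean of 1319 to 510 FPM in NRKE cells, with a log2 fold change of -1.37 ± 0.21 (adjusted p = 6.3e-06, edgeR quasi-likelihood test, Benjamini-Hochberg adjusted). It rose from 142 to 240 FPM in NRKF cells, with 0.76 ± 0.22 (adjusted p = 0.012), and the responses differed by -2.13 ± 0.31 (adjusted p = 6.2e-06). The NRKE sample groups did not overlap at pH 6.0, with 732 to 745 FPM in sample group 1 and 254 to 327 FPM in sample group 3. The fall was -0.91 in sample group 1 and -2.14 in sample group 3, and the difference between the lines -1.63 within sample groups 1 and 4 and -2.92 within 3 and 6, all of them called.

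The cytosolic enzyme gene Ca13 went from a mean of 31.3 to 60.9 FPM in NRKE cells (0.96 ± 0.32, adjusted p = 0.012, edgeR quasi-likelihood test, Benjamini-Hochberg adjusted), a call that was lost with the likelihood ratio test (adjusted p = 0.096) and within sample groups 3 and 6 (adjusted p = 0.088). In NRKF cells Ca13, which is counted above among the genes that fell there, had 21, 7, 0, 69, 9 and 0 counts at pH 7.4 and 0 to 3 at pH 6.0. It passed the filter only through the NRKE samples and its mean at pH 6.0 was under the level of 3 counts, so neither a fold change nor a p is given for NRKF cells. Car2 had a mean of 0.048 FPM or less in each condition and was not tested.

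Of 11 Slc26 anion exchangers in the table, 6 were tested, and 0 rose and 1 fell in each line, where 24.7% of all tested genes rose and 36.6% fell in NRKE cells and 14.5% rose and 14.4% fell in NRKF cells. Their median log2 fold change was -0.04 in NRKE cells (all genes, -0.12) and -0.19 in NRKF cells (all genes, 0.00). The gene that fell was Slc26a8, by -1.25 ± 0.15 in NRKE cells (adjusted p = 1.7e-07, edgeR quasi-likelihood test, Benjamini-Hochberg adjusted) and by -0.42 ± 0.15 in NRKF cells (adjusted p = 0.042). The NRKF call was lost without A040, A041, A042, A043, A051, A052, A053, A054 or A055 (adjusted p from 0.051 to 0.11), with raw library totals (adjusted p = 0.051), with no filter on low counts (adjusted p = 0.068) and within either pair of sample groups (adjusted p = 0.1 and 0.17). Slc26a6, a chloride-bicarbonate and oxalate exchanger, was called in neither line. Its mean levels at pH 7.4 and pH 6.0 were 21.5 and 21.7 FPM in NRKE cells and 21.5 and 23.6 FPM in NRKF cells. The NRKE sample groups 1 and 3 did not overlap, with 21 to 25.9 against 18.4 to 20.1 FPM at pH 7.4. At pH 6.0 they had 24.4 to 28.2 against 16.4 to 18.6 FPM. The acid response was 0.15 in sample group 1 and -0.15 in sample group 3, neither of them called.

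Of 11 genes of plasma membrane proton extrusion, 7 were tested, and 0 rose and 2 fell in NRKE cells (all tested genes, 24.7% and 36.6%) and 3 rose and 1 fell in NRKF cells (14.5% and 14.4%). Their median log2 fold change was -0.29 in NRKE cells (all genes, -0.12) and -0.16 in NRKF cells (all genes, 0.00). The largest rise in NRKF cells was that of the exchanger gene Slc9a5 (0.74 ± 0.27, adjusted p = 0.044, edgeR quasi-likelihood test, Benjamini-Hochberg adjusted), which was lost without A039, A041, A042, A043, A052 or A056 (adjusted p from 0.078 to 0.12), with raw library totals, no filter on low counts or the line fitted alone (adjusted p = 0.089, 0.061 and 0.067) and within sample groups 3 and 6 (0.50, adjusted p = 0.33). The largest fall there was that of Bsg, for the partner protein of lactate carriers (-0.56 ± 0.15, adjusted p = 0.0061, same edgeR test and adjustment), which was lost within either pair of sample groups (adjusted p = 0.062 and 0.074). In NRKE cells the largest fall was that of the lactate carrier gene Slc16a3, from a mean of 4.61 to 1.82 FPM (-1.32 ± 0.29, adjusted p = 0.00043, same edgeR test and adjustment). At pH 6.0 its sample groups did not overlap, with 2.24 to 3.34 FPM in sample group 1 and 0.733 to 1.04 FPM in sample group 3, and the fall was -0.74 in sample group 1 (adjusted p = 0.049) and -2.34 in sample group 3.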

How the data were processed

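The deposited counts were read pairs per Ensembl gene, which the authors aligned with HISAT2 2.1.0 and counted over exons with featureCounts, multi-mapping reads included, from paired-end poly(A) libraries. The submitters' processing notes name the rat build rn6 and the study's methods name rn7. The strand setting is not given in the sources used here, so reads of an antisense gene cannot be told apart. Of the count columns 23 were used, and 13 that matched no sample here were not used.

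All 23 samples were fitted together with the 4 conditions as groups in edgeR 4.0.16 (R 4.3.3), with filterByExpr (minimum count 10, minimum total 15), TMM scaling, the quasi-likelihood test and Benjamini-Hochberg adjustment over 14777 genes. The 5 comparisons were acid against control in each line, their difference, and the lines at each pH. FPM are counts per 1000000 of the library total times the TMM factor. Standard errors were derived from the log2 fold change and its F statistic, which does not hold for a change of about 0, so none is given for the difference of Slc4a7. Scripts were tested on simulated data.

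The members and lists were chosen with earlier results of these data known. Named in the text are all 9 members, the gene with the largest called rise and fall of each other list in each line, Ahcyl1, Ahcyl2, Adcy10, Slc4a1ap, Car2 and Slc26a6, and the 3 genes most like each member with a mean of at least 5 FPM. Some items under this rule are not reported here.

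Alternatives were RLE scaling, raw library totals, DESeq2 1.42.0, the likelihood ratio test, no filter beyond 1 count, at least 10 counts in every sample, each line alone, each pair of sample groups alone, the sample group as a block, and each sample left out. The TMM factor as a covariate with a slope for each line, and the test of the acid response between sample groups, were chosen after seeing the data. Tables and plots were made with Python 3.11.15, pandas 2.3.3, numpy 2.4.6 and matplotlib 3.10.9.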

Additional observations from a re-analysis of the deposited data

Results flagged for a closer look

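The level of Slc4a7 in A021, an NRKE sample at pH 7.4, was 6.35 FPM, far from the other samples of its group, of which the next highest had 2.74 FPM. Of 23 groups of samples examined in this way 1 held such a sample. The criterion is set so that chance alone marks about 1 in 20 groups, a rate that was not measured here. Without A021 the acid response of Slc4a7 in NRKE cells was 1.79 on the log2 scale in place of 1.36.

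The acid response of Slc4a3 differed between the lines by the test of the difference itself, with a log2 value of -1.11 (adjusted p = 0.0007, edgeR quasi-likelihood test, Benjamini-Hochberg adjusted), from -1.57 in NRKE cells and -0.46 in NRKF cells. That of Slc4a11 differed by 2.02 (adjusted p = 1.2e-05, same edgeR test and adjustment), from 1.33 in NRKE cells and -0.68 in NRKF cells. Slc4a11 had 13 to 43 counts per NRKF sample.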

How the results depend on the processing

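Of the members' log2 fold changes under the alternatives, 802 kept their direction and their side of the threshold, 20 passed it newly, 19 no longer passed it and 7 changed sign. The difference of acid responses of Slc4a7, 0.00, has no sign and is counted with the first. It ran from -0.30 to 0.60 under the other settings and from -0.20 to 0.43 without a sample, and was never called. Comparisons in which the mean of a condition was at or under the level of 3 counts are not counted, a choice made after seeing the data. These were all those of Slc4a4 and Slc4a9 but the acid response of Slc4a4 in NRKF cells and of Slc4a9 in NRKE cells, and those of Ca13 that involve NRKF cells. The number of members called in NRKF cells on acid was 3, but 1 within sample groups 1 and 4, and from 2 to 5 with a sample left out. With raw library totals the mean of Slc4a2 at pH 7.4 was 200 FPM in NRKE cells and 172 FPM in NRKF cells.

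Changes of sign were found in values that were not called. The comparison of the lines for Slc4a2 at pH 7.4 ran from -0.01 to 0.06 over the fits without a sample, and that for Slc4a3 at pH 6.0 was 0.08 within sample groups 1 and 4. The NRKE acid response of Slc4a10 was -0.07 within sample groups 1 and 4 and ran from -0.04 to 0.09 without a sample. Within sample groups 3 and 6 the difference of acid responses was 0.16 for Epb41, and the NRKE acid response was -0.15 for Slc26a6 and 0.03 for Slc9a5. That of Slc26a6 ran from -0.07 to 0.09 without a sample. The cause was not tested.

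No paired analysis was possible because the replicate codes are not shared between groups. The order of the members per kilobase was not run, since no transcript lengths were at hand. Depth limits Slc4a11 in NRKF cells, with 13 to 43 counts per sample.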
